A study of Homo sapiens with 10 samples.

Results

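Deposited m6A peaks were examined in 8 genes of TGF-beta and BMP signalling, SMAD2, SMAD3, SMAD4, SMAD7, TGFBR1, TGFBR2, ACVR2A and BMPR2, across 5 human colon cancer cell lines. A peak was assigned to a gene when its summit lay inside the hg19 span set for that gene, and the 8 spans came to 734 kb. Of the 38106 peaks in the 5 lists, 8 met this rule, in 4 of the 8 genes. How many other stretches of these lengths hold a peak in any list was not computed, and shares for each list are given below. HCT116 had 4 of them, COLO320DM 3, COLO205 1, and HT29 and HCT15 had 0.

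The study enriched fragmented total RNA with an antibody to N6-methyladenosine (MeRIP) and kept part of the same RNA as input. The lines were HCT116, HT29 and HCT15, labelled colorectum, and COLO320DM and COLO205, labelled colon, all grown alike and given no treatment that the labels name. Each line gave 1 immunoprecipitated (IP) library with a peak list and 1 input, so values are compared between libraries and there is no replicate check and no test. Each line stands for 1 tumour, and the lists hold peaks only, with no expression values, so the markers of the labelled tissue could not be read.

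TGF-beta, activin and BMP ligands bind a pair of receptor kinases. The type II receptor phosphorylates the type I receptor, which phosphorylates receptor SMADs that enter the nucleus together with SMAD4. The pathway restrains growth of intestinal epithelium, and colon cancers often lose it. Tumours with defective mismatch repair, the class of HCT116 and HCT15, often carry frameshifts in coding repeats of TGFBR2 and ACVR2A. m6A is deposited in mRNA mostly near stop codons and in long exons, and a peak can be called only where the transcript is present in the sequenced RNA.

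The lists differed in length, with 917 peaks in HCT15 and 8832 (COLO320DM) to 9998 (COLO205) in the other 4, which are called the long lists. HCT116 had 9418 and HT29 8941. The IP depth recovered from the lists was 2.99 M reads (M for mega) for COLO205 and 2.13 M for HT29, but 1.47 M for COLO320DM and 1.38 M for HCT116. It was not recovered for HCT15. By this estimate HT29 and COLO205 were deeper than HCT116 and COLO320DM, the lines with the most peaks in these genes. The median reads behind a peak ran the other way, at 8 in HT29 and 9 in COLO205. They were 11 in HCT116 and 12 in COLO320DM. Whether depth bears on the peaks in these genes was not tested. The shallow lists called peaks from as few as 2 reads and the deep ones from as few as 3.

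Peaks in these genes fell in 2 of 8 genes in HCT116 (25.0%, exact 95% interval 3.19% to 65.1%), 3 of 8 in COLO320DM (37.5%, 8.52% to 75.5%) and 1 of 8 in COLO205 (12.5%, 0.316% to 52.7%). In HT29 and HCT15 it was 0 of 8, with an exact 95% upper limit of 36.9%. As a background, the same chromosomes were cut into windows as long as each span. The HCT15 list had a summit in 0.889% of these windows. The share was 11.6% for COLO320DM, 10.7% for COLO205, 10.5% for HCT116 and 10.1% for HT29. These shares pool all windows, so short spans count more. With each span weighed equally, the mean share was 12.9% for COLO320DM, 12.0% for COLO205, 11.7% for HCT116, 11.5% for HT29 and 0.972% for HCT15. The intervals of HCT116 and COLO205 hold their background, and that of COLO320DM does too. Those of HT29 and HCT15 start at 0, so they hold any background below their upper limit. The intervals treat the 8 genes as equal draws. In HCT116, however, the window share ran from 3.57% at the SMAD7 length to 23.1% at the BMPR2 length. The 8 genes were also a chosen set, so the intervals only show how wide the counting error is with 8 genes. No line was tested against its background, and lines were not tested against each other. Windows include stretches without genes, so they are not a background of expressed genes.

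Type II receptors held 4 of the 8 peaks. ACVR2A, the receptor for activins, had 2 peaks in HCT116 and 1 in COLO320DM. The larger HCT116 peak, at chromosome 2 from 148685031 to 148685139, had a fold of 6.63. The fold is the authors' deposited value, taken here as (summit reads + 1) / (local background + 1). The 95% interval of that fold from its read count (exact Poisson) was 3.03 to 13.3, and intervals in brackets after other folds are of the same kind. It rested on 6 IP reads over a background of 0.0554 reads. The COLO320DM peak, from 148685030 to 148685113, had a fold of 4.81 (2.01 to 10.8) from 4 reads over a background of 0.0398. The 2 peaks shared 83 nt and their summits lay 15 nt apart. Their intervals overlap over most of their length, and the higher fold in HCT116 was not tested.

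Both ACVR2A peaks rested on few reads over a low background. With 1 added to each, such a fold is close to the reads plus 1, and is not the plain ratio of reads to background. The COLO320DM background was the lowest of its list, which is the genome mean, and 125 other peaks of that list have exactly the same fold and p. The remaining peaks in these genes had such ties too, from 4 at the larger HCT116 peak to 86 at SMAD3 in COLO320DM. The smaller HCT116 peak, from 148684766 to 148684895, rested on 2 reads. Its fold was 2.84 (1.18 to 7.79), its −log10 q (q being the p adjusted for multiple tests) was 1.36 beside a lowest value of 1.31 in the list, and 2.75% of HCT116 peaks had a fold as low or lower. It ended 135 nt before the larger peak began. HT29 had no peak within 538 kb of the ACVR2A span and COLO205 none within 559 kb.

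BMPR2, the type II receptor for BMPs, had 1 peak, in COLO320DM. It ran from 203420160 to 203420236 on chromosome 2, with a fold of 5.47 (2.70 to 10.2) from 8 reads over a background of 0.647. That fold was near the middle of its list, at percentile 54.6. In the other long lists the nearest summit was 72.9 to 73.3 kb from the BMPR2 span, and in HCT15 it was 824 kb away.

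TGFBR2, the type II receptor for TGF-beta, had no peak in any list, and neither did TGFBR1, its type I partner. The nearest summit to the TGFBR2 span was 939 kb away, in COLO205, and 953 kb away in HCT116. In HT29 it was 1466 kb away and in COLO320DM 1876 kb. For TGFBR1 the distance ran from 373 kb in HCT116 to 980 kb in COLO320DM, with HT29 and COLO205 between them at 667 kb each. For every other gene of the 8, the nearest summit over the 4 long lists together was at most 42.8 kb away. In single lists, ACVR2A at 538 kb in HT29 and 559 kb in COLO205 was farther than TGFBR1 in HCT116. Summits so far off lie outside the gene, and such distances were not computed for other genes. Most windows of these lengths on the same chromosomes held no summit either. In the long lists, 7.83% (HT29) to 9.50% (HCT116) of windows of the TGFBR1 length had one. At the TGFBR2 length it was 8.82% (HT29) to 12.7% (COLO320DM). The lists do not say how much TGFBR1 or TGFBR2 RNA was in the input. A lack of methylation and a lack of transcript therefore cannot be told apart here, and no reason for the missing peaks was tested.

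**Figure D1:**
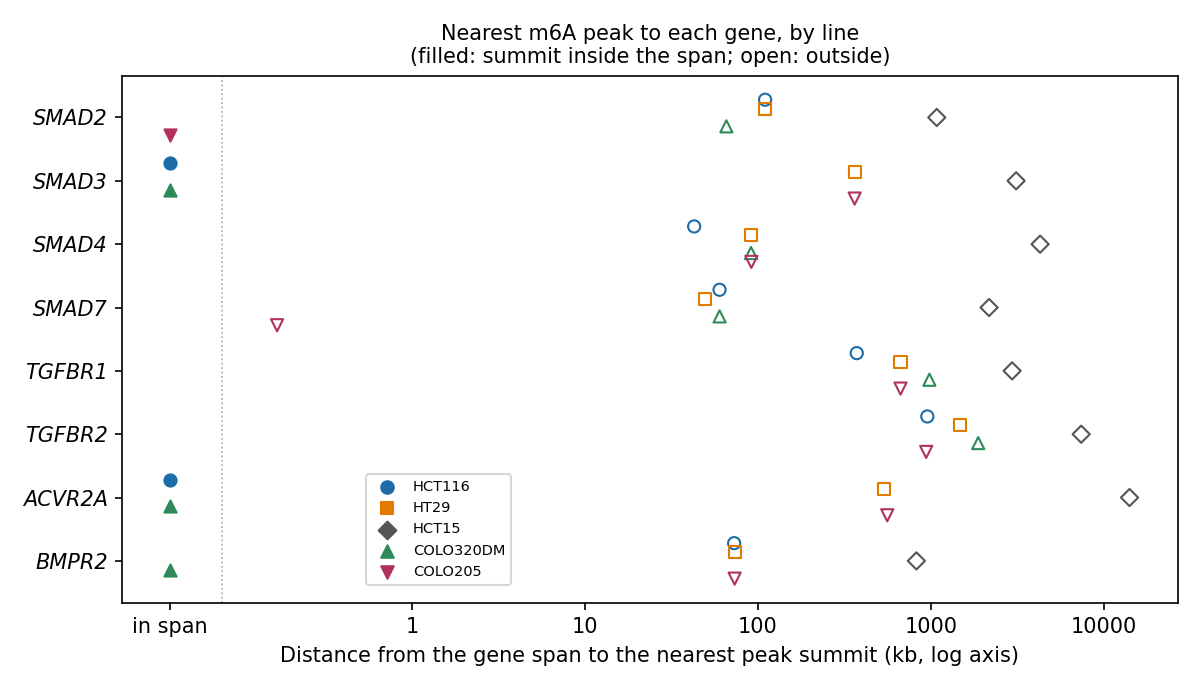
Distance in kb (log axis) from each gene span to the nearest peak summit in each line, with filled symbols at the left for a summit inside the span. SMAD3 and ACVR2A have a summit inside in HCT116 and COLO320DM. Over all 5 lines the nearest summit to TGFBR1 is 373 kb away, in HCT116, and the nearest to TGFBR2 is 939 kb away, in COLO205.

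The receptor SMADs, which carry the signal to the nucleus, held the other 4 peaks. SMAD3 had a peak at its 5′ edge in HCT116 and in COLO320DM, and a peak near its 3′ edge in HCT116. At the 5′ edge, HCT116 had a fold of 4.33 (2.50 to 7.07) from 67358025 to 67358102 on chromosome 15, with 14 reads over a background of 2.46. COLO320DM had a fold of 6.68 (3.52 to 11.8) from 67357959 to 67358139, with 10 reads over a background of 0.647. The HCT116 peak lay wholly within the COLO320DM peak, and the summits were 75 nt apart. COLO320DM had the higher fold with fewer reads, since its background was lower, and the intervals overlap. The order of the 2 lines was thus the opposite of that at ACVR2A. Overlap of 2 intervals is not a test of their difference, and neither order was tested.

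The SMAD3 summits lay 86 nt inside the edge of the span in HCT116 and 11 nt inside in COLO320DM, so their assignment rests on where that edge was set. To show what the start of SMAD3 looks like, the window from 250 bases before to 50 after the most upstream of its start sites in RefSeq (GRCh38.p14, chr15:67065352-67065651, plus strand) is given 5′ to 3′. Capitals mark GGACT, a form of the sequence at which m6A is commonly made. The builds differ, so where the hg19 peaks fall in it was not determined.

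SMAD3 start window: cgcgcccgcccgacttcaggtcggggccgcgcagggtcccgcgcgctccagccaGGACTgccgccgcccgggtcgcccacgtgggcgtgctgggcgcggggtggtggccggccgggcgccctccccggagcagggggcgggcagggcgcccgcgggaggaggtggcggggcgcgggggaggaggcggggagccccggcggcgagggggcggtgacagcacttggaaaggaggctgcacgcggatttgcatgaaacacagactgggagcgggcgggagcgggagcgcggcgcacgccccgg

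GGACT or its reverse complement AGTCC occurs at 1 place in this window, on the plus strand and before the start. It occurs in 44.2% of the 35116 such windows of all genes, and in 3 of 8 when the most upstream start of each of the 8 genes is taken. Most of each window lies before the start, and the reverse complement is counted too. These shares are therefore not counts of possible m6A sites. The SMAD3 window was 80.3% G and C, beside a median of 58.7% over all windows.

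The 3′ peak of SMAD3 was the widest and had the most reads of the 8. It ran from 67483160 to 67483427, 268 nt, with a fold of 6.32 (3.83 to 9.91) from 17 reads over a background of 1.85. Its −log10 q was 7.59. No other list had a peak there, and HT29 and COLO205 had none within 362 kb of the SMAD3 span. SMAD2, the second receptor SMAD of this branch, had 1 peak, in COLO205, from 45422974 to 45423075 on chromosome 18. Its fold was 4.89 (2.71 to 8.27) from 12 reads over a background of 1.66. It was the one peak of COLO205 in the 8 genes, and 32.2% of COLO205 peaks had a fold as low or lower.

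SMAD4, the common partner of the receptor SMADs, and SMAD7, which blocks receptor signalling, had no peak. The nearest summit to SMAD4 was 42.8 kb away, in HCT116, and 91.2 to 91.6 kb away in the other long lists. For SMAD7 a COLO205 peak lay just outside, with its summit 166 nt past the 5′ edge of the span. It ran from 46478098 to 46478200 on chromosome 18, with a fold of 7.09 from 10 reads. In HT29 the nearest summit to SMAD7 was 49.3 kb away, and in HCT116 and COLO320DM it was 60.0 kb away in each.

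**Figure D2:**
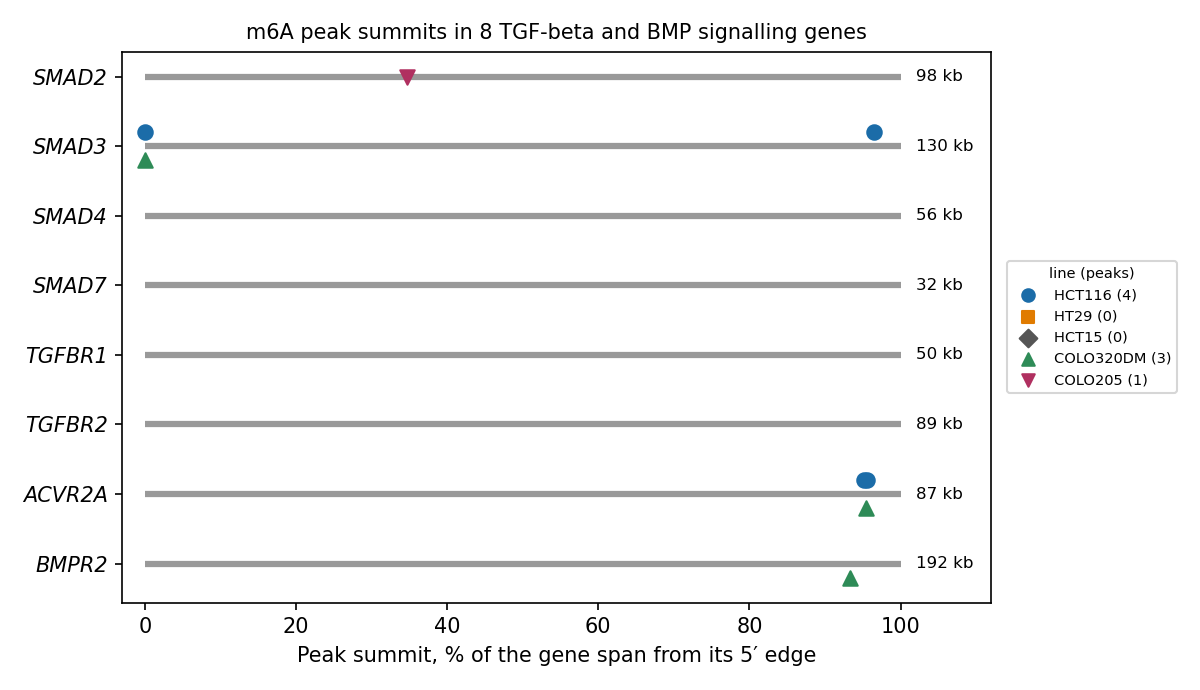
Summit of each peak as a percentage of its gene span from the 5′ edge, with the span length in kb at the right of each line and HCT116 and COLO320DM drawn above and below it. Of the 8 peaks, 5 lie past 90% of their span, 2 at the 5′ edge of SMAD3 and 1 inside SMAD2, while HT29 and HCT15 have 0.

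Most of the 8 peaks lay towards the 3′ edge of their span. No such share was computed over all genes, so this is a description only and does not set these genes apart. Taking the direction of each gene from RefSeq, 5 of the 8 peaks, or 4 of the 6 merged regions, lay past 90% of the span. These were at 93.3% in BMPR2, 95.2% and 95.5% for the HCT116 peaks of ACVR2A, 95.5% for that of COLO320DM, and 96.4% in SMAD3. They were 12.8 kb from the 3′ edge in BMPR2, 3.91 to 4.18 kb in ACVR2A and 4.63 kb in SMAD3. In ACVR2A the HCT116 summits were 274 nt apart, with that of COLO320DM between them. The SMAD2 peak lay at 34.7% of its span. No hg19 annotation was used here, so whether a peak is in an exon, an intron or an untranslated region is not stated. The lists give no strand, so a transcript from the opposite strand cannot be told apart from the gene itself.

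Merging overlapping peaks of all lists gave 6 regions in these genes. Of these, 2 were in 2 lists (33.3%, 4.33% to 77.7%), against 36.0% of all 22315 regions in at least 2. Both were held by HCT116 and COLO320DM and by no other list, as were 4.70% of all regions. None of the 6 was in all 4 long lists, with an exact 95% upper limit of 45.9%, against 6.87% of all regions. Each interval holds the share over all regions, but with 6 regions the intervals are wide. The pair of HCT116 and COLO320DM was taken up because both shared regions were theirs, and these lists held most of the peaks. Its 33.3% and the 4.70% of all regions are therefore only set side by side, and the difference was not tested.

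**Figure D3:**
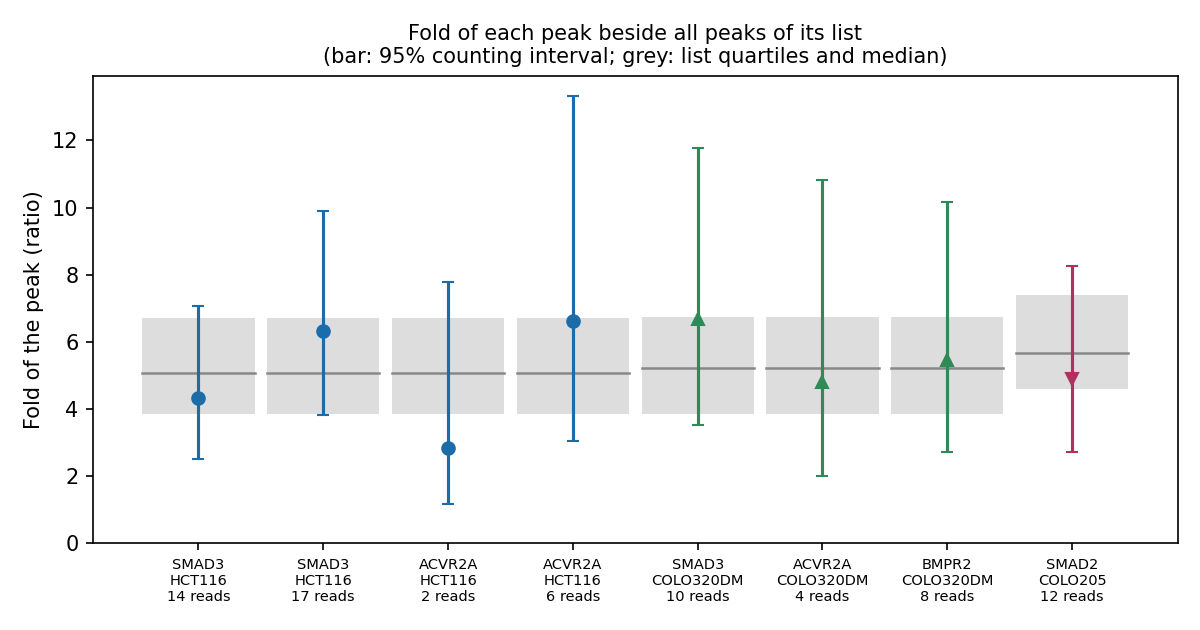
Fold of each of the 8 peaks (ratio, axis from 0) with its 95% counting interval, the IP reads behind it under its name, and in grey the quartiles and median of all peaks of the same list. Every interval holds the median of its list, and 4 of the 8 folds lie above it.

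The folds of the 8 peaks ran from 2.84 to 6.68, beside list medians of 5.08 in HCT116, 5.23 in COLO320DM and 5.65 in COLO205, and 4 of the 8 were above their median. Reads ran from 2 to 17, beside median counts of 11, 12 and 9 in the same order. The counting intervals leave out the error of the background. The caller's local background was lower at ACVR2A than at the other peaks. At ACVR2A it was 1.45 times the lowest level of the list in HCT116 and 1.00 times in COLO320DM. At the 5′ edge of SMAD3 it was 64.3 and 16.2 times in the same lines, and at the 3′ peak of SMAD3 48.2 times in HCT116. It was 16.2 times at BMPR2 in COLO320DM and 19.96 times at SMAD2 in COLO205. The ACVR2A peaks thus had few reads over a background near the genome mean in both lines, and the other peaks had more reads over a higher one.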

How the data were processed

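MeRIP peak lists of 5 IP libraries were used, 1 for each line. The input libraries were not analysed here. Per the submitters' processing notes, MACS2, BWA, cutadapt, FastQC and the build hg19 were used, with no versions or parameters given, and the control is not given in the sources used here. The deposited lists give a fold (summit over local background, taken below as having 1 added to each), a −log10 p, a −log10 q and a score, which is derived from the q. The folds are the authors' own. Their percentiles are within a list, and folds of different lists at a shared region are only set side by side. Positions count from 1.

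IP reads were recovered as the whole number that met both the deposited fold, taken as (reads + 1) / (background + 1), and the Poisson p within 0.001 on the −log10 scale. This worked for 100% of the peaks of the 4 long lists, and for 100% of 939 peaks simulated with random backgrounds and reads. The simulation used the same formulas, so it checks the calculation and not whether the formulas hold for these lists. Reads of HCT15 were not recovered. Depth is the lowest background times an assumed genome of 2.7 Gb over the shortest peak. Counting intervals are exact Poisson, and shares have exact Clopper-Pearson intervals. They cover counting error only. Peaks overlapping by 1 nt were merged, on chromosomes 1 to 22, X and Y, and the merging gave the same counts as bedtools 2.31.1 on simulated intervals. The software was scipy 1.17.1, pandas 2.3.3, matplotlib 3.10.9 and numpy 2.4.6 under Python 3.11.15.

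The genes, their spans and the alternatives were chosen with earlier results of these data known. All 8 genes are named, with every peak. A planned list of other pathway genes was not run, because no hg19 annotation was used here. The alternatives were stricter q and fold thresholds, equally long lists, other rules for assigning and sharing peaks, wider spans, each list left out and a pseudocount of 0.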

Additional observations from a re-analysis of the deposited data

How the results depend on the processing

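Of the 101 alternative values, 90 stayed close to the reported ones, but some of these could not move, such as counts of 0 under stricter thresholds. With a −log10 q of at least 5, HCT116 had 2 peaks in these genes and COLO205 0, in 0 genes, 3 regions remained and 1 was in at least 2 lists. That region was the one at ACVR2A, since the HCT116 peak at the start of SMAD3 was lost. At that threshold COLO320DM kept 2 of its 3 peaks, in 2 genes, because the BMPR2 peak was lost. This change was counted as close. With spans widened by 5 kb, COLO205 had 2 peaks in 2 genes, because the SMAD7 peak came in. With reciprocal overlap of 50%, 1 region was in at least 2 lists. Without HCT116 or without COLO320DM it was 0, by construction, as both shared regions rest on these lists. With a pseudocount of 0, 0 of the 8 peaks gave whole reads. HT29 and HCT15 had 0 peaks under each rule for thresholds and spans, which stricter thresholds could not change. With 2 to 17 reads behind a peak, differences in fold between lines were not tested, and a missing peak does not show that a transcript is unmethylated. No paired analysis was possible because each line has 1 IP library.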
